A study of Mus musculus with 3 samples.

Results

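Cholangiocyte-like nuclei were picked from single-nucleus RNA sequencing of frozen mouse liver by the genes they carried. Of 28336 nuclei kept in 3 libraries, 80 (0.282%) met the rule, and the ND, STZ-HFHC 1 and STZ-HFHC 2 libraries gave 11, 42 and 27 of them. A nucleus was taken when it held at least 3 different genes of Pkhd1, Bicc1, Epcam, Krt19, Krt7, Cftr, Sox9 and Spp1, and when these 8 genes made up at least 0.2% of its unique molecular identifiers (UMIs). It could hold at most 1 of the mesothelial genes Msln, Upk3b, Wt1, Muc16 and Lrrn4, and at most 1 of Stab2, Ptprb, Reln, Dcn, Csf1r, Clec4f and Gpnmb, which mark endothelial cells, stellate cells or fibroblasts, and macrophages. Nuclei were kept when they had 200 to 5000 genes and at most 5% mitochondrial UMIs, out of 30989 barcodes. Since the rule reads gene counts, the levels of these 8 genes and every comparison with other nuclei are given below as descriptions, without a test.

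Cholangiocytes are the epithelial cells that line the bile ducts. They carry a primary cilium into the duct lumen, modify bile by secreting chloride, bicarbonate and water, and rest on a basement membrane beside portal fibroblasts. In chronic liver injury, ducts can multiply around the portal tracts, which is called a ductular reaction, and cholangiocytes are known as a source of signals to neighbouring fibroblasts, stellate cells and immune cells.

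The study compared a normal diet with a model of fibrosis in metabolic dysfunction-associated steatohepatitis. All mice were male C57BL/6J. The ND mouse was 1 animal on the normal diet. The STZ-HFHC mice were 2 animals that received 0.2 mg streptozocin under the skin at 3 days of age, and a diet rich in fat and cholesterol, with 41 kcal% fat and 43 kcal% carbohydrate, from 4 weeks of age. Each mouse gave 1 library, so no spread exists for ND and no test between conditions was made. Streptozocin also destroys pancreatic islets, and drug and diet were given to the same mice. The ND library and the STZ-HFHC libraries carry different codes in their titles whose meaning is not stated, and any difference that goes with these codes cannot be told apart from one of condition. A lower share of cholangiocytes in the tissue and a lower yield of their nuclei also cannot be told apart. Before filtering, the libraries held 77617520, 73942732 and 72934861 UMIs, respectively for ND, STZ-HFHC 1 and STZ-HFHC 2, and sets of 3 values below follow this order. Cholangiocyte-like nuclei held 28485, 97570 and 55834 of these UMIs. They were shallow, with a median of 1543, 2029.5 and 1755 UMIs per nucleus beside 4070, 3031 and 4044.5 in the other kept nuclei. Their median mitochondrial share of UMIs was higher, at 0.119%, 0.124% and 0.0793% beside 0.0350%, 0.0725% and 0.0421%, and its part in the results was not tested. In ND, 1 nucleus of 6153 UMIs gave 21.6% of all UMIs of the group, while the deepest nucleus gave 8.49% and 8.18% in the STZ-HFHC libraries. No barcode of a cholangiocyte-like nucleus was shared with a kept nucleus of another library, although 24, 20 and 27 kept barcodes were shared between pairs of libraries (ND with STZ-HFHC 1, ND with STZ-HFHC 2, and STZ-HFHC 1 with 2).

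The genes of the rule were present at very unequal depth. Levels are given as UMIs of a gene summed over the nuclei of a library and scaled to a total of 1000000 (CPM), and intervals in parentheses are 95% intervals that cover counting error only. Pkhd1, which encodes fibrocystin, a ciliary protein whose loss causes cystic ducts and congenital hepatic fibrosis, gave 83, 539 and 238 UMIs. Its level was 2914 CPM (2321–3612), 5524 CPM (5068–6011) and 4263 CPM (3738–4840.0), and it was detected in 80 of the 80 nuclei. Bicc1, an RNA-binding protein whose loss also causes cystic ducts, gave 44, 211 and 117 UMIs, or 1545, 2163 and 2096 CPM. The other cholangiocyte markers were thin. Epcam, an epithelial adhesion protein, gave 3, 5 and 8 UMIs. The duct keratin Krt19 gave 4 UMIs in ND and 0 in both STZ-HFHC libraries, where a count of 0 allows up to 30.7 and 53.7 CPM, and the keratin Krt7 gave 0, 6 and 1. Cftr, the chloride channel of bile secretion, gave 1, 18 and 16 UMIs, and Sox9, a transcription factor of biliary cells, gave 5, 9 and 11. The label therefore rested mainly on Pkhd1 and Bicc1, and on Spp1, which encodes the secreted protein osteopontin and gave 15, 113 and 17 UMIs.

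Low counts of these genes also occurred outside the group. Reference nuclei were chosen by counts of hepatocyte, endothelial, stellate or macrophage markers and had at most 1 gene of the rule. There were 3187, 1060 and 1824 hepatocyte-marker nuclei, 1189, 1204 and 1629 endothelial-marker nuclei, 226, 180 and 340 stellate-marker nuclei, and 86, 573 and 374 macrophage-marker nuclei. Pkhd1 stood at 99.8, 212 and 146 CPM in hepatocyte-marker nuclei and at 94.6, 192 and 129 CPM in endothelial-marker nuclei, whereas it was at 69.9, 22.9 and 42.2 CPM in stellate-marker nuclei. Cholangiocyte-like nuclei thus held 29.2, 26.0 and 29.2 times the hepatocyte-marker level. Bicc1 was near 0 in hepatocyte-marker nuclei, at 6.24, 10.1 and 5.80 CPM, but reached 152, 631 and 355 CPM in stellate-marker nuclei. With every nucleus thinned to 1000 UMIs, a Pkhd1 UMI remained in 10 of 10, 34 of 38 and 24 of 24 cholangiocyte-like nuclei, beside 9.13%, 19.0% and 13.4% of hepatocyte-marker nuclei. Without thinning, the shares in hepatocyte-marker nuclei were 29.0%, 50.4% and 48.8%, at median depths of 3412, 4428.5 and 5299.5 UMIs. Bicc1 remained in 7 of 10, 30 of 38 and 19 of 24 thinned cholangiocyte-like nuclei and in 0.560%, 1.23% and 0.619% of hepatocyte-marker nuclei. Reference nuclei could hold only 1 gene of the rule, so these gaps are in part set by the selection.

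Pkhd1 lies on the minus strand at chr1:20057779-20618064 and Bicc1 on the minus strand at chr10:70922832-71159700 (GRCm38, GENCODE M21). The promoters of Pdgfd and Pdgfc, secreted ligands of the platelet-derived growth factor family, are shown because both genes were called higher in cholangiocyte-like nuclei and were the only ligands of a fixed list of 20 that passed the count filter. The RefSeq sequences (GRCm38.p6) run 5′ to 3′ on the strand of the gene from 250 bases before to 50 bases after its start. Capitals mark the SOX motif, ACAAAG or its reverse complement CTTTGT. The Pdgfd window is chr9:6168236-6168535, plus strand, and the Pdgfc window is chr3:81036166-81036465, plus strand.
Pdgfd: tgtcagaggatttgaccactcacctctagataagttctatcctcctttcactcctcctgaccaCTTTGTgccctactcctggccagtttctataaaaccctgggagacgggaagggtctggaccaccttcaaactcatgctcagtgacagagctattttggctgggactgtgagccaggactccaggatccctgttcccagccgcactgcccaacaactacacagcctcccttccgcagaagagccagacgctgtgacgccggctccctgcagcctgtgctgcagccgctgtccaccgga
Pdgfc: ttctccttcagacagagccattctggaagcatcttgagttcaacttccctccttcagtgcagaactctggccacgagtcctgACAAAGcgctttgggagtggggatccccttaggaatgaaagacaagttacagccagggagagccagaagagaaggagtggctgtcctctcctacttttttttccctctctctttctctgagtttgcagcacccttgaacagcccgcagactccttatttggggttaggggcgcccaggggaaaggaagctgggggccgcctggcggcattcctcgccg
Of 65 genes that were at least 4-fold higher in cholangiocyte-like nuclei than in other nuclei of the same library in all 3 libraries, 46 had a promoter in the table. Motifs were searched on both strands. The GRHL motif AACCGGTT was found in 0 of 46 (0.174% of the table), the TEAD motif ACATTCC in 3 (6.52% beside 4.47%), the RBPJ motif GTGGGAA in 5 (10.9% beside 7.25%) and the SOX motif ACAAAG in 12 (26.1%, beside 5680 of the 27025 genes of the table), among them Pdgfd, Pdgfc, Spp1 and Cdh6. A gene with several promoters in the table was counted once if any held the motif. These are matches of letters only, in small numbers of promoters.

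Cholangiocyte-like nuclei were rare in every library and rarest in ND. They made up 0.130% (0.0647–0.232), 0.471% (0.340–0.636) and 0.247% (0.163–0.360) of kept nuclei, with intervals by the Clopper-Pearson method. Over both STZ-HFHC mice, the share averaged 0.359% ± 0.158 (SD, n = 2). The share in STZ-HFHC 1 was 3.64 times (1.84–7.83) that of ND, and the share in STZ-HFHC 2 was 1.91 times (0.917–4.26), an interval that includes 1. The STZ-HFHC mice themselves differed by 1.90 times (1.15–3.21), so the spread between mice of one condition was about as large as the gap between ND and STZ-HFHC 2. With 1 ND mouse, no direction between the conditions can be tested. Spp1, a gene of the rule, bore unequally on the libraries. An Spp1 UMI was found in 39 of 42 nuclei of STZ-HFHC 1 but in 13 of 27 of STZ-HFHC 2 and 7 of 11 of ND. Spp1 was also highest in the remaining nuclei of STZ-HFHC 1, with levels of 0.773, 16.7 and 3.45 CPM in the 3 libraries. When Spp1 was left out of the rule, 6, 15 and 18 nuclei remained, or 0.0706% (0.0259–0.154), 0.168% (0.0941–0.277) and 0.165% (0.0977–0.260). The shares of the STZ-HFHC mice were then alike in value, their intervals overlapped that of ND, and their mean was 2.36 times the share of ND in place of 2.77. Other settings moved this ratio both ways. It was 2.55 with at least 4 genes, 3.80 with at least 2 genes and 6.27 with nuclei thinned to 1000 UMIs, where 4 nuclei of ND remained.

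**Figure D1:**
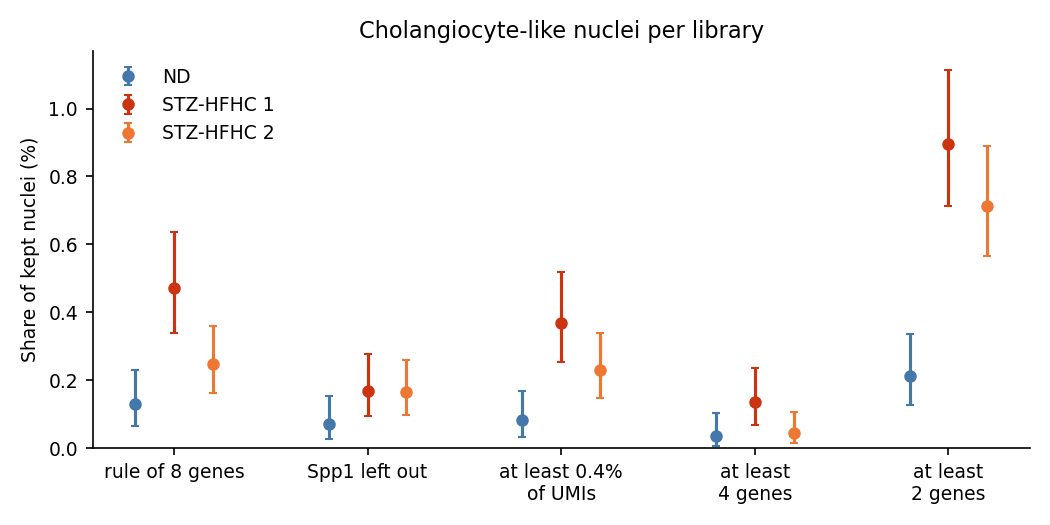
Share of kept nuclei that were cholangiocyte-like (%, vertical axis) in each library under the rule of 8 genes and under 4 other settings of the rule. Points are single libraries and bars are 95% Clopper-Pearson intervals. ND is lowest under each of the 5 settings, and STZ-HFHC 1 and STZ-HFHC 2 come together at 0.168% and 0.165% when Spp1 is left out.

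Most nuclei sat close to the gene limit of the rule. Exactly 3 of the 8 genes were found in 8, 30 and 22 nuclei, and at most 6 were found in any. The share of UMIs from the 8 genes ran from 0.278% to 1.55% in ND with a median of 0.671%, from 0.204% to 2.27% in STZ-HFHC 1 with a median of 0.878%, and from 0.289% to 1.51% in STZ-HFHC 2 with a median of 0.651%. Just outside, 7, 35 and 13 nuclei had 3 genes but a share below the limit, of at most 0.177%, 0.186% and 0.170%, and 7, 38 and 51 nuclei reached the share with 2 genes. A further 7, 61 and 22 nuclei met both limits but were left out because they carried 2 or more genes of other cell types. Of these, 0, 11 and 1 failed by mesothelial genes. Among those taken, 54 nuclei held 1 gene of the endothelial, stellate and macrophage list and 2 held 1 mesothelial gene.

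Genes outside the rule varied among these nuclei. To describe this, 9 genes that the rule did not use were counted in each nucleus (Glis3, Dcdc2a, Pdgfd, Kcnma1, Thsd4, Anxa13, Kcnip4, Cdh1 and Ctnnd2). They were chosen after values were seen, among genes high in these same nuclei, so the counts describe the nuclei and support no separation from the rest. At least 3 of them were found in 10 of 11, 34 of 42 and 26 of 27 cholangiocyte-like nuclei, with medians of 5, 5.5 and 6. In the other kept nuclei, which were deeper, at least 3 were found in 1.97%, 4.25% and 4.07%. The 7, 38 and 51 nuclei just outside the rule, with 2 of its genes, held medians of 2, 1 and 4 of the 9 genes, so that those of STZ-HFHC 2 came nearer to its cholangiocyte-like nuclei. Over the 3 libraries, the numbers ran without a gap from 1 to 9. At the low end, in STZ-HFHC 1, 6 nuclei held at most 1 of the 9 genes, all 6 met the rule with exactly 3 genes, 5 of them held Spp1, and their median depth was 2308 UMIs. The lowest nucleus of ND and of STZ-HFHC 2 held 2 of the genes. Nuclei with and without an Spp1 UMI were also set side by side. In ND, the 7 nuclei with Spp1 held a median of 6 of the 9 genes and the 4 without it 4.5, but the first were deeper, with a median of 3236 beside 1490 UMIs. In STZ-HFHC 1, the medians were 6 in 39 nuclei and 4 in 3 nuclei, and in STZ-HFHC 2 they were 7 in 13 and 6 in 14. Pdgfd gave 53 UMIs with and 9 without Spp1 in ND, 190 and 3 in STZ-HFHC 1, and 71 and 52 in STZ-HFHC 2, or 2298 beside 1660.2, 2087 beside 459, and 2383 beside 1997 CPM. No direction is read from these few UMIs.

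**Figure D2:**
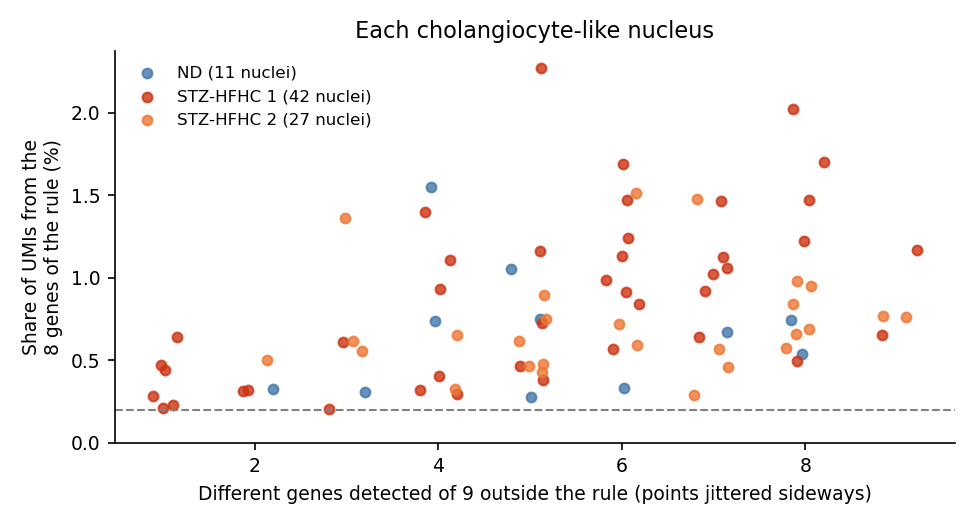
Each point is 1 of the 80 cholangiocyte-like nuclei, placed by the number of different genes it held of 9 genes outside the rule (horizontal axis) and by the share of its UMIs from the 8 genes of the rule (%, vertical axis, dashed line at the limit of 0.2%). The 6 points at the left edge with 1 of the 9 genes are all from STZ-HFHC 1, and 10 of the 11 nuclei of ND hold 3 or more.

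Genes outside the rule were also higher in the group. Of 1417 genes with at least 30 UMIs in cholangiocyte-like nuclei, 65 (4.59%) were at least 4-fold higher (log2 ratio of at least 2, with 0.5 added to each count) than in the other kept nuclei of the same library in all 3 libraries, and 0 were 4-fold lower. The filter reads only the group itself, so that it favours genes that are high there and leaves little room for lower ones. Of the 65 genes, 61 were outside the rule. Lamc3, the gamma 3 chain of laminin, ranked first of these by its smallest ratio over the libraries, at a mean log2 ratio of 8.04 ± 0.30 (SD, n = 3 libraries). It gave 281, 184 and 304 CPM in cholangiocyte-like nuclei and at most 1.06 CPM in the other nuclei. The next were Kcnma1, Nipal2, Gm609, Cdh6, A230001M10Rik, Dab1, Sobp, Anxa13, Ppp2r2b, Ctnnd2, Epb41l4a, Slit2, Dcdc2a and Thsd4, with mean log2 ratios between 5.65 for Dcdc2a and 7.92 for Cdh6. At this depth, most of these 15 genes had a UMI in a minority of the 80 nuclei, from 15 nuclei for Slit2, 21 for Lamc3 and 23 for Cdh6 to 48 for Dcdc2a, 53 for Kcnma1 and 57 for Thsd4. Among these are cadherin 6, the cadherin partner delta-catenin (Ctnnd2), the epithelial annexin Anxa13 and the guidance ligand Slit2. Dcdc2a and Thsd4 were the only ones of these 15 above 20 CPM in stellate-marker nuclei of any library, where Dcdc2a reached 129, 174 and 234 CPM and Thsd4 19.2, 135 and 84.5 CPM. The 61 genes spanned a median of 186 kb on the genome, beside 112 kb for the genes that passed the filter.

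**Figure D3:**
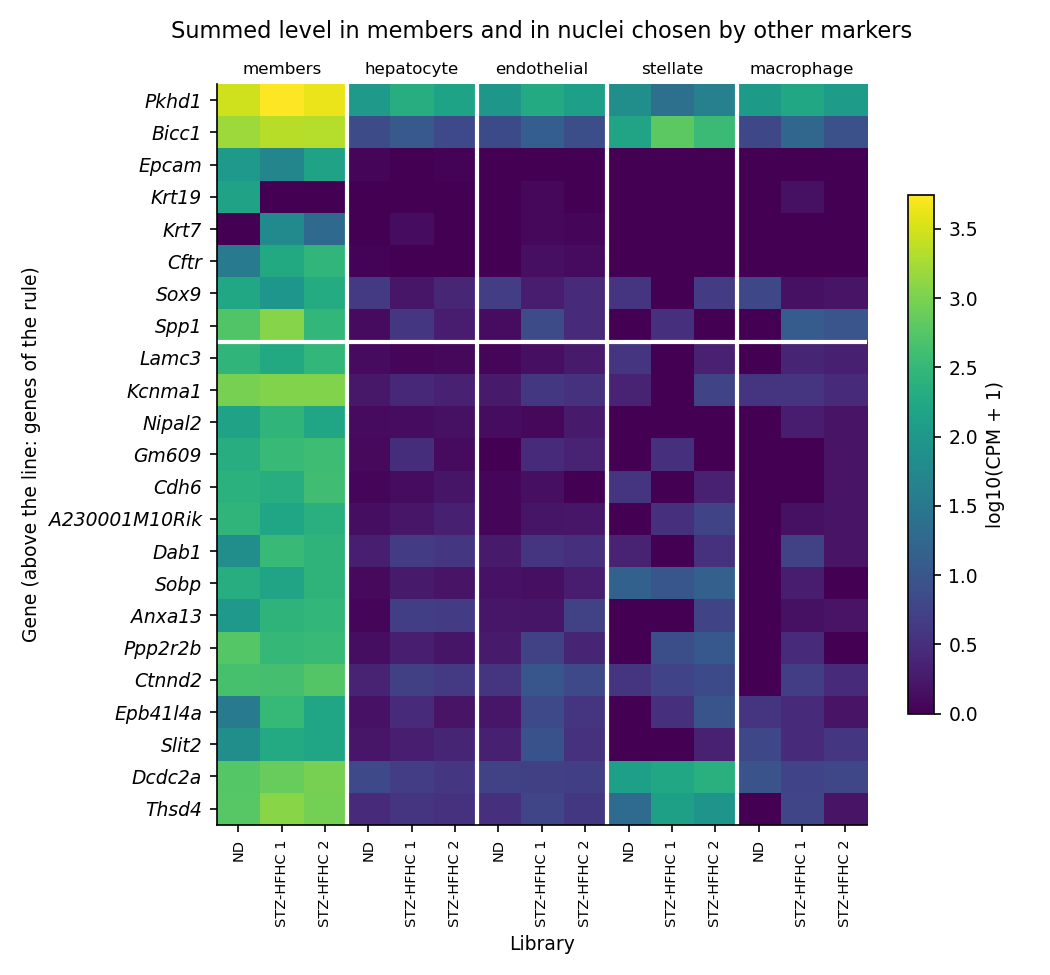
Levels of the 8 genes of the rule (above the white line) and of the 15 leading genes outside it (rows) in cholangiocyte-like nuclei (members) and in nuclei chosen by hepatocyte, endothelial, stellate and macrophage markers (columns, 3 libraries each). Colour gives log10(CPM + 1) of summed UMIs, and outside the first 3 columns Pkhd1 is lower but visible in all types and Bicc1, Dcdc2a and Thsd4 in stellate-marker nuclei.

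Of 16 transcription factors on the biliary list, 7 passed the count filter and 3 were called higher, among them Glis3 and Onecut1, beside 4.59% of all genes tested. The filter favours genes that are high in the group, so that this count and those of the lists that follow describe the members and set no list apart. Glis3, a zinc finger factor at chr19:28258851-28680077 whose loss causes cystic kidneys and liver fibrosis, gave 45, 219 and 122 UMIs, or 1579.8, 2245 and 2185 CPM, beside 25.0, 154 and 69.4 CPM in the other nuclei. In hepatocyte-marker nuclei Glis3 was at 5.47, 120.4 and 36.6 CPM, so that its excess over them was 289-fold in ND but 18.6-fold and 59.7-fold in the STZ-HFHC libraries. Onecut1, which acts in duct formation, gave 281, 369 and 287 CPM beside 39.0, 44.8 and 36.1 CPM. Other epithelial factors had too few UMIs for the filter. Grhl2 gave 6, 8 and 4 UMIs, which were 27.3%, 18.2% and 12.9% of all its UMIs in kept nuclei, and Ehf gave 3, 5 and 7 UMIs, or 27.3%, 9.26% and 15.2%. Klf5 gave 0, 2 and 1 UMIs, Elf3 0, 0 and 1, and Foxa1 and Foxa2 0, 1 and 1 each. Prox1, which hepatocytes also use, passed the filter and was not called, at 772, 409.96 and 555 CPM beside 439, 291 and 306 CPM.

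Transport and ciliary genes gave a few strong members and many faint ones. Kcnma1, the pore subunit of a large calcium-activated potassium channel at chr14:23289431-24014491, gave 27, 106 and 60 UMIs, or 948, 1086 and 1075 CPM, beside 1.87, 7.39 and 5.96 CPM elsewhere. The 80 nuclei held 25.2%, 24.5% and 15.3% of all Kcnma1 UMIs of their libraries. It was the only one of 20 genes on the secretion and transport list that was called, of 3 that passed the filter, beside 4.59% of all genes tested. The secretin receptor Sctr gave only 1, 5 and 7 UMIs, which were 14.3%, 16.7% and 25.0% of its UMIs. The glucose cotransporter Slc5a1 gave 1, 7 and 10 UMIs. The bicarbonate cotransporter Slc4a4 was no higher than elsewhere, at 772, 615 and 519 CPM beside 1426, 886 and 827 CPM. Of 25 ciliary and polycystic genes, 3 passed the filter and Dcdc2a was called, beside the same 4.59%. Dcdc2a, which encodes a doublecortin domain protein of the primary cilium, gave 562, 738 and 949 CPM beside 14.2, 13.2 and 17.2 CPM. Pkd2, the cation channel of the cilium, gave 5, 15 and 12 UMIs, or 176, 154 and 215 CPM beside 36.5, 45.9 and 46.4 CPM.

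Epithelial genes and adhesion genes followed. Of 18 further biliary genes, 6 passed the filter and 2 were called (Cdh1 and Anxa13), with a median log2 ratio of 2.37 over the 6, beside 0.13 over all genes that passed. Cdh1, E-cadherin, gave 211, 359 and 501 CPM beside 19.1, 35.5 and 20.3 CPM. The genes of this list with the most UMIs were Sorbs2 at 2212, 4048 and 4513 CPM, the adhesion protein Alcam at 1826, 3597 and 2830 CPM and ceruloplasmin (Cp) at 1790.4, 2286 and 2293 CPM. Other nuclei held 933, 1648 and 1301 CPM of Sorbs2. None of these 3 genes was called, so each was enriched by less than 4-fold in at least 1 library. Prom1 gave 3, 6 and 9 UMIs and Tspan8 gave 2, 13 and 2, with at most 2.24 CPM in the other nuclei. Of 21 junction and polarity genes, 8 passed the filter and 0 were called, although the scaffold Magi1 reached 4002, 4950.3 and 4710.4 CPM beside 1559, 1441 and 1322 CPM. Of 22 basement membrane and integrin genes, 3 passed and 0 were called. Both counts of 0 stand beside 4.59% of all genes tested, and so few tested genes set neither list apart. Itgb8, an integrin that activates TGF-beta, was below the filter with 6, 16 and 4 UMIs, and stood at 211, 164 and 71.6 CPM beside at most 3.89 CPM elsewhere.

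Of 20 profibrotic ligands, 2 passed the filter, both genes of platelet-derived growth factors, and both were called higher, beside 4.59% of all genes tested and after a filter that favours such genes. Pdgfd, a ligand of the PDGF receptor beta of stellate cells and fibroblasts, lies at chr9:6168584-6378850. It gave 62, 193 and 123 UMIs, or 2177 CPM (1669–2790.3), 1978 (1709–2278) and 2203 (1831–2628), beside 33.6, 63.7 and 50.7 CPM in the other nuclei. The level was alike in all 3 libraries, at 0.91 times ND (0.68–1.23) in STZ-HFHC 1 and 1.01 times (0.74–1.40) in STZ-HFHC 2. Stellate-marker nuclei held 97.3, 135 and 144 CPM and endothelial-marker nuclei 51.4, 90.3 and 65.9 CPM, and the 80 nuclei held 4.15%, 6.40% and 4.18% of the Pdgfd UMIs of their libraries. Thinned to 1000 UMIs, 8 of 10, 27 of 38 and 22 of 24 nuclei kept a Pdgfd UMI, beside 1.19%, 1.54% and 1.18% of hepatocyte-marker nuclei and 7.81%, 14.0% and 9.50% of endothelial-marker nuclei. Pdgfc, a ligand of the PDGF receptor alpha, gave 11, 80 and 34 UMIs, or 386, 820 and 609 CPM beside 80.4, 116 and 89.9 CPM. Tgfb2 gave 0, 10 and 6 UMIs. Vegfa, of the same list, gave 1, 11 and 4 UMIs, or 35.1, 113 and 71.6 CPM beside 145, 98.0 and 111 CPM, and 5 of the 20 genes had no UMI.

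**Figure D4:**
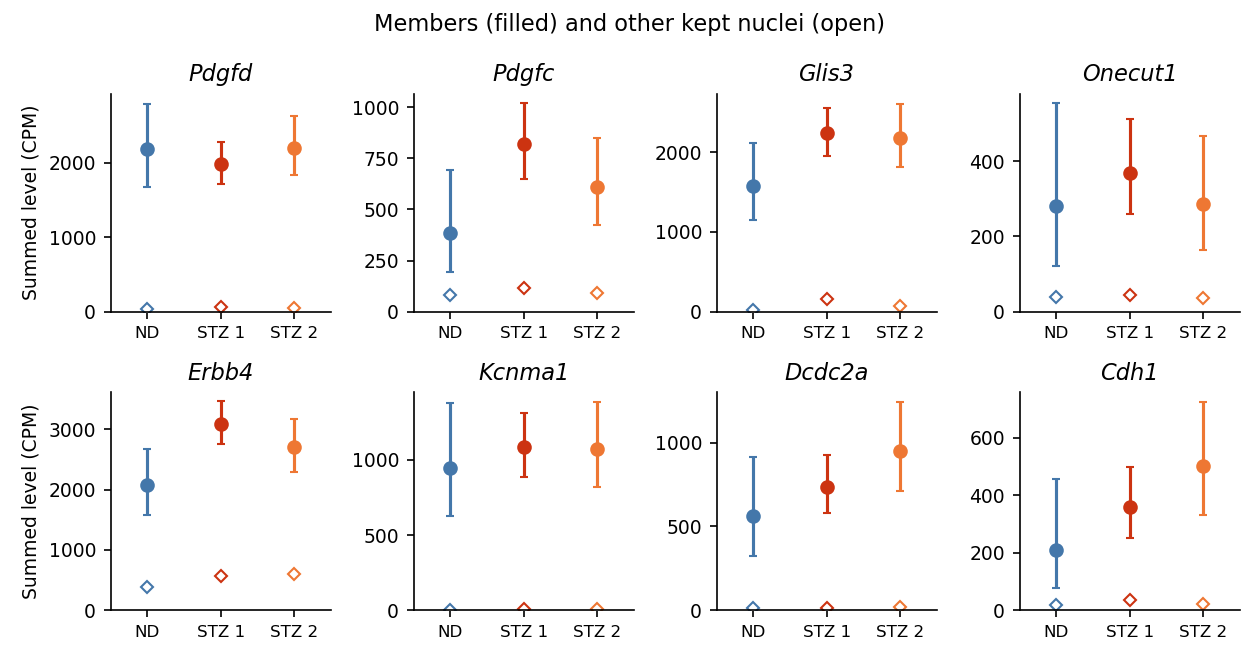
Summed level (CPM, vertical axes, each from 0) of 8 genes in cholangiocyte-like nuclei (filled circles, with 95% exact Poisson intervals) and in the other kept nuclei (open diamonds) of each library (ND, STZ-HFHC 1 and STZ-HFHC 2). Pdgfd lies between 1978 and 2203 CPM in the 3 libraries with overlapping intervals, and for each of the 8 genes the filled circles lie above the open diamonds.

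Further genes called higher, chosen for mention after their values were seen, included ligands and receptors. Angpt1, the ligand of the receptor Tie2, gave 421, 409.96 and 681 CPM, and Gas6, a ligand of the TAM receptors, 211, 236 and 197 CPM. Stellate-marker nuclei held Angpt1 too, at 95.9, 274 and 179 CPM. Among receptors, Erbb4, which binds neuregulins, gave 2071, 3095 and 2704 CPM beside 392, 561 and 597 CPM elsewhere, and Igf1r gave 281, 594 and 358 CPM, beside 190.5, 686 and 537 CPM in stellate-marker nuclei. Kcnip4, a subunit that modulates potassium channels, was found in 29 nuclei and unevenly among them. In ND, 20 of its 21 UMIs came from 1 nucleus, and nuclei with 5 or more UMIs numbered 1, 7 and 9 and held 95.2%, 86.1% and 95.4% of its UMIs. Most of the Kcnip4 level of the group thus came from few nuclei.

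Few genes of the lists that follow passed the filter, and 0 were called over other nuclei, beside 4.59% of all genes tested. With so few genes tested, a count of 0 sets no list apart. Of 18 Notch genes, 3 passed the filter and 0 were called, with a median log2 ratio of 1.13 over the 3, and the list summed to 1053, 2122 and 1594 CPM beside 599, 951 and 795 CPM. Jag1, a Notch ligand of ducts, was below the filter with 1, 12 and 8 UMIs, at 35.1, 123 and 143 CPM beside 9.21, 13.6 and 13.4 CPM. Of 20 Hippo pathway genes, 6 passed and 0 were called, and the coactivator Yap1 stood at 70.2, 236 and 215 CPM beside 202, 236 and 261 CPM. Of 24 inflammation genes, 1 passed and 0 were called. Complement C3, the gene that passed, is also on the hepatocyte list and gave 8, 16 and 10 UMIs. Nfkbiz, a regulator of NF-kappaB, gave 4, 21 and 2. Of 10 gallbladder and mucin genes, 8 had no UMI, and the list summed to 0, 3 and 1 UMIs, where a count of 0 in ND allows up to 105 CPM. Of 12 proliferation genes, none passed, and they summed to 1, 4 and 17 UMIs. In STZ-HFHC 2, the 4 UMIs of Knl1 lay in 1 nucleus and the 4 of Cenpf in 2 nuclei. Of 8 senescence genes, 2 passed and 0 were called over other nuclei.

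Between the conditions, most genes that stood higher in cholangiocyte-like nuclei of STZ-HFHC were barely sampled in ND. The genes that stood lower included 5 of the hepatocyte list. Of the 1417 genes, 170 (12%) passed a 2-fold rule as higher than in ND in both STZ-HFHC mice and 67 (4.73%) as lower in both, with 0.5 added to each count. The same genes in the other kept nuclei gave 108 (7.62%) higher and 31 (2.19%) lower. The counts are not tests. The STZ-HFHC libraries gave most of the UMIs, so that a gene low in ND could pass the filter through STZ-HFHC alone. Of the 170 higher genes, 10 had no UMI in ND, so that their call rests on the added 0.5, and 122 had 1 to 3, and 38 had more than 3, while all 67 lower genes had more than 3. With median-of-ratios size factors in place of total UMIs, the numbers were 125 higher and 110 lower, so that the share of higher genes among the calls went from 71.7% to 53.2%. That scaling moved the median log2 ratio to ND, taken over the ratios of both STZ-HFHC mice together, from 0.18 to -0.06. Of the 65 genes of the 4-fold rule over other nuclei, 10 also passed the 2-fold rule, all higher in STZ-HFHC, beside 12% of all genes tested. Among them were Cftr, a gene of the rule, and Anxa13, with a UMI in 1 and 3 nuclei of ND. No result about the 65 genes is read from this count.

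**Figure D5:**
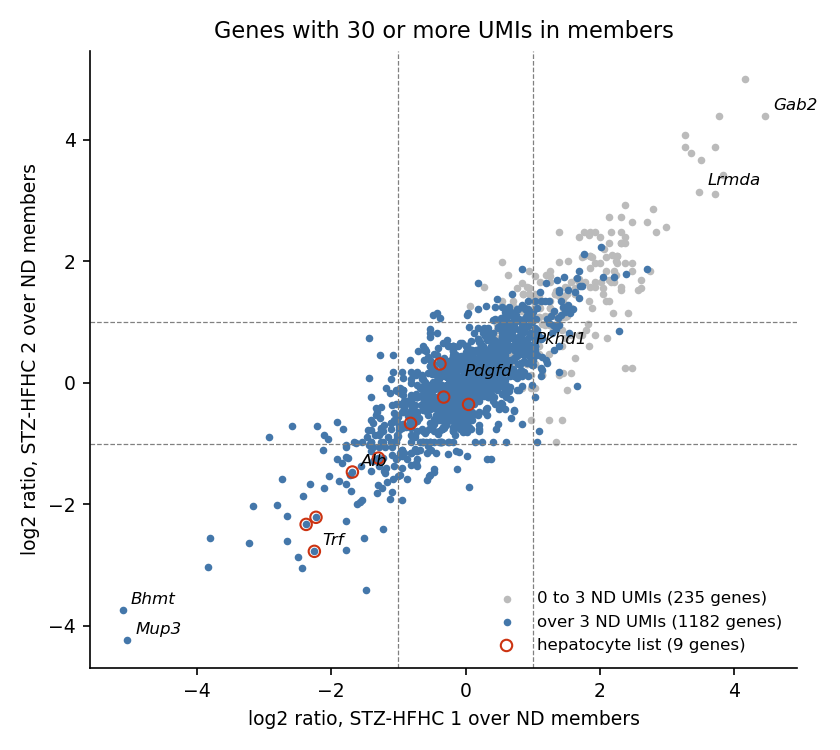
Log2 ratio to ND of cholangiocyte-like nuclei in STZ-HFHC 1 (horizontal axis) and STZ-HFHC 2 (vertical axis) for genes with at least 30 UMIs, with dashed lines at 2-fold. Both axes share the ND library, and grey points have 0 to 3 UMIs in ND, as have all but 38 of the 170 genes past 2-fold higher in both mice, and circled points are hepatocyte genes, 5 of which lie beyond 2-fold lower in both mice.

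Of the 10 leading lower genes, Apoa1 and Trf are on the hepatocyte list. Bhmt, an enzyme of methionine metabolism, gave 85, 8 and 12 UMIs, or 2984, 82.0 and 215 CPM, which is 0.0275 times ND (0.0115–0.0566) and 0.0720 times (0.0358–0.132). In the other kept nuclei, Bhmt was at 0.0270 and 0.0434 times ND, so a difference of like size was found outside the group. The major urinary protein gene Mup3, whose near-identical copies share reads, gave 33, 3 and 3 UMIs, and stood at 388, 35.2 and 39.0 CPM in the other nuclei. The others in the leading 10 were Ttc39c, Aox3, Acsl1, Sult2a8, Azgp1, Gk, Apoa1 and Trf, and each was lower in the other kept nuclei as well, at 0.11 to 0.36 times ND. Of the 12 genes on the hepatocyte list, 9 passed the filter. Alb, Trf, Apob, Ttr and Apoa1 were called lower and 0 higher, beside 4.73% lower and 12% higher of all genes tested. Of the 67 lower genes, 24 were also called lower in the other nuclei, beside 2.19% of all genes tested. Against the hepatocyte-marker level in ND, 39 of the 67 were below it and 7 were at least 2-fold above it. The shares of all tested genes on either side are not given here, so these 39 and 7 describe the 67 only. Those 7 were Mup3, Mup20, Gatad2b, Kmt2a, Clu, Rngtt and mt-Co1, with 10 to 33 UMIs in ND. Clu, the secreted chaperone clusterin, gave 13, 20 and 8 UMIs in 3, 13 and 5 nuclei, with 7 of the 13 ND UMIs in 1 nucleus, or 0.449 times (0.213–0.983) and 0.314 times (0.113–0.817), while the other nuclei stood at 0.704 and 0.716 times ND.

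The hepatocyte list as a whole was abundant in cholangiocyte-like nuclei. It summed to 16535, 6887 and 8579 CPM there and to 18855, 12677 and 14251 CPM in the other nuclei, which is 87.7%, 54.3% and 60.2% of their level. Such sums give deep nuclei more weight. The median per nucleus was 11947, 6939 and 8009 CPM in the group, beside 17937, 9698 and 12145 CPM in the other nuclei. Cps1, the urea cycle enzyme, gave the most UMIs, with 116, 306 and 283 UMIs in the group. Each of the 80 nuclei held UMIs of this list, with a range of 8344 to 26816 CPM in ND, 1287 to 17744 in STZ-HFHC 1 and 4931 to 14984 in STZ-HFHC 2. The part of hepatocyte RNA in the differences between conditions was not tested. When the 688 genes that were at least 2-fold higher in hepatocyte-marker nuclei were left out of genes and totals, 151 genes were higher and 62 lower, of which 151 and 47 were among the 170 and 67.

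The leading higher genes were barely sampled in ND. The 10 leading genes were Gab2, Nrg4, Myh9, Wdfy2, R3hcc1l, Rsu1, Cd44, F11r, Gm19619 and Lrmda, and 9 of them had no UMI in ND. Gab2, an adaptor of receptor signalling, gave 0, 37 and 20 UMIs in 0, 24 and 12 nuclei, that is at least 3.60-fold and 3.40-fold higher against a floor of 3 counts in the ND library. In the other kept nuclei, Gab2 was at 4.29 and 2.82 times ND. Cd44, the hyaluronan receptor, gave 0, 17 and 13 UMIs, at least 1.65-fold and 2.21-fold higher, beside 6.41 and 4.12 times in the other nuclei. F11r, a tight junction adhesion protein, gave 0, 16 and 14 UMIs, at least 1.56-fold and 2.38-fold higher, while the other nuclei stood at 1.14 and 0.761 times. Nrg4 and Gm19619 were abundant in hepatocyte-marker nuclei of STZ-HFHC 1, at 758 and 633 CPM, above their levels in the group. Lrmda gave 2, 95 and 43 UMIs, with intervals of 3.73 to 116 times and 2.86 to 93.5 times ND. Of the 38 higher genes with more than 3 UMIs in ND, the one with the most after Gm42418 was Ext1, named after its values were seen, which polymerizes heparan sulfate. Ext1 gave 14, 159 and 74 UMIs, with log2 ratios to ND of 1.68 and 1.39 beside 0.83 and 0.53 in the other nuclei. Of the 170 genes, 45 were also called higher in the other nuclei, beside 7.62% of all genes tested. At least 2-fold above hepatocyte-marker nuclei in STZ-HFHC were 65 of the 170. The share of all tested genes above that level is not given here, so the 65 describe the 170 only. Beside genes named already, the leading ones of the 65 were Slc8a1, Peak1, St6gal1, 2700054A10Rik, Fmnl2 and Igfbp7. St6gal1, a sialyltransferase, gave 1, 26 and 15 UMIs, with intervals of 1.25 to 311 times and 1.18 to 322 times ND.

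Some genes named earlier for the group, with more UMIs in ND, stood nearer to their ND level than the leading genes did. Not all genes with many UMIs in ND did so, since Bhmt was far lower in both STZ-HFHC mice. Pkhd1, which the rule used, was at 1.90 times ND (1.50–2.42) in STZ-HFHC 1 and 1.46 times (1.13–1.90) in STZ-HFHC 2, and in the other nuclei at 2.19 and 1.41 times. Sorbs2, outside the rule, was at 1.83 times (1.40–2.43) and 2.04 times (1.54–2.73), and Alcam at 1.97 times (1.47–2.69) and 1.55 times (1.13–2.16), beside 1.77 and 1.39 times and 1.76 and 1.09 times in the other nuclei. Kcnma1 was at 1.15 times (0.745–1.82) and 1.13 times (0.709–1.86), Glis3 at 1.42 times (1.03–2.00) and 1.38 times (0.975–1.99), and Dcdc2a at 1.31 times (0.757–2.42) and 1.69 times (0.951–3.17). Spp1, also a gene of the rule, was at 2.20 times (1.28–4.06) in STZ-HFHC 1 and 0.578 times (0.272–1.24) in STZ-HFHC 2, where the interval includes 1. By list, the 2-fold rule called 2 of 6 tested Hippo genes (Yap1 and Stk3), 3 of 8 junction genes (Magi3, Afdn and F11r), 2 of 3 basement membrane and integrin genes (Dst and Itgb1) and 1 of 2 senescence genes (Igfbp7), all higher, beside 12% of all genes tested. In ND, Magi3 gave 10 UMIs in 5 nuclei and Afdn 5 UMIs in 2 nuclei, while Yap1, Stk3 and Itgb1 gave 2 UMIs each, Dst and Igfbp7 1 each and F11r 0. These genes passed the filter mainly through the STZ-HFHC libraries, so their calls are no result about the lists. By the same rule, 0 of the tested Notch, inflammation, ligand, ciliary, transport and transcription factor genes were called in either direction. Of all genes tested, 12% were called higher and 4.73% lower.

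Markers of other non-parenchymal cells are compared here with the other kept nuclei, which include those cells themselves, and with hepatocyte-marker nuclei. The endothelial list summed to 632, 656 and 627 CPM in cholangiocyte-like nuclei beside 821, 1102 and 905 CPM in the other nuclei and 169, 143 and 144 CPM in hepatocyte-marker nuclei, and Stab2 gave the most UMIs. The stellate and fibroblast list summed to 105, 133 and 71.6 CPM, beside 287, 395 and 406 CPM in the other nuclei and 52.1, 54.5 and 35.5 CPM in hepatocyte-marker nuclei, with 4 of its 10 genes at 0. Reln gave the most UMIs of it, with 1, 8 and 0. The macrophage list summed to 211, 338 and 251 CPM beside 350, 661 and 454 CPM in the other nuclei and 255, 148 and 179.8 CPM in hepatocyte-marker nuclei, with 1 of its 10 genes at 0. Hepatocyte-marker nuclei could hold at most 1 gene of each such list, so their low sums were built in as well, and the stellate sums in the group rested on 3, 13 and 4 UMIs. The part of RNA from those cells in the group was not tested. Since the rule limits 7 of these genes, low sums in the group were also in part built in. The lymphocyte list, which the rule did not use, summed to 281, 594 and 734 CPM beside 329, 967 and 889 CPM in the other nuclei. Hepatocyte-marker nuclei held 294, 882 and 808 CPM of this list, so they too held more in STZ-HFHC. Bach2, a gene of this list, was called higher than in ND, with 2, 24 and 14 UMIs. The mesothelial list summed to 105, 359 and 143 CPM beside 6.47, 39.4 and 14.2 CPM in the other nuclei. Hepatocyte-marker nuclei held 1.16, 6.77 and 2.24 CPM of this mesothelial list. Of its 10 genes, 5 had no UMI, and so had 4 of the 5 mesothelial genes of the rule. Gpm6a, which gave most of the sum, was called higher over other nuclei, with 3, 31 and 7 UMIs. Of its 31 UMIs in STZ-HFHC 1, 16 lay in 1 nucleus, and the part of mesothelial RNA in these values was not tested. Of the highest 8% of doublet scores in each library, 0, 0 and 1 were cholangiocyte-like nuclei.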

How the data were processed

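Counts in the deposited matrices were UMI counts per gene and barcode, made by the authors with Cell Ranger 7.0.1 (per the labels), 1 library per mouse, and not normalized. The build is mm10 per the labels, and whether intronic reads were counted is not given in the sources used here. Nuclei were chosen by the rule given with the results. The members and lists were chosen with earlier results of these data known. UMIs were summed over nuclei per library in Python 3.11.15 with NumPy 2.4.6, SciPy 1.17.1, pandas 2.3.3 and Scanpy 1.11.5. Log2 ratios had 0.5 added to each count, and genes needed 30 UMIs in the group over all libraries. Named genes came mainly from the 8 of the rule, the 15 leading genes outside it, and the 10 leading higher and lower genes between conditions. The leading genes were also taken among those 2-fold over hepatocyte-marker nuclei. From the 22 lists, abundant genes and most called genes were named, and some genes below the count filter. Others, such as Angpt1, Gas6 and Ext1, were chosen after their values were seen. Reference nuclei had at least 3 markers of their list (hepatocytes 6) and at most 1 of each other list. Of 32285 gene identifiers, 32158 were found in GENCODE M21, with 381 of the 381 genes considered for naming. Intervals of ratios are exact conditional binomial intervals, and UMIs of 1 nucleus are not independent. Doublets were kept, since the automatic Scrublet threshold (in Scanpy) marked 1, 0 and 0 nuclei and did not work. Only the rules for calling genes were run on simulated counts. These were drawn independently per gene and library, without single nuclei, unlike the data, and no result here rests on them. Alternatives changed the rule, the count filter, the scaling and the nuclei used. Some genes of the lists are not reported here.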

Additional observations from a re-analysis of the deposited data

How the results depend on the processing

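Leaving out Spp1 took the share in STZ-HFHC 1 from 0.471% to 0.168%. At least 2 genes gave 0.897% and 0.714% in STZ-HFHC 1 and 2, and at least 4 genes gave 0.0353%, 0.135% and 0.0458% in the 3 libraries. Without excluding other cell types, the STZ-HFHC shares were 1.15% and 0.449%. After thinning to 1000 UMIs, ND held 0.0506%, and the mean STZ-HFHC share was 6.27 times that of ND in place of 2.77. Leaving out 1 STZ-HFHC mouse gave 1.91 to 3.64 times. ND was lowest under every setting of the rule.

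Genes called over other nuclei went from 65 (4.59% of 1417 genes) to 186 (4.67% of 3983) with at least 10 UMIs, to 18688 higher and 2 lower without a filter, where genes with no UMI in the group can pass by the added 0.5, to 27 (5.58% of 484) without STZ-HFHC 1 and to 45 (5.06% of 890) without STZ-HFHC 2. Of the 65 genes, 54 were called with nuclei weighted equally, a setting chosen after seeing the data. Genes called higher and lower than ND went from 170 and 67 to 595 and 291 (14.9% and 7.31%) with at least 10 UMIs, and to 1044 and 1695 without a filter. Median-of-ratios scaling gave 110 lower genes. Leaving Spp1 out of the rule gave 79 and 29 (14.1% and 5.18% of 560), of which 35 and 19 were among the 170 and 67. Leaving out 1 STZ-HFHC mouse gave 64 to 136 higher (13.2% to 15.3%) and 49 to 83 lower (9.33% to 10.1%). Of the 170 and 67, 35 and 40 were called without STZ-HFHC 1, and 85 and 53 without STZ-HFHC 2. Without the deepest ND nucleus, chosen after seeing the data, 171 and 66 were called, and 132 and 47 were among the 170 and 67. With only the nuclei that held at least 3 of the 9 further genes, 124 and 57 were. The direction over other nuclei of the genes of the rule and of the 15 leading genes held under each setting run. So did the direction against ND of the leading genes called between conditions. These genes were chosen by the same contrasts, so an unchanged direction was largely set in advance and is no support. The size of the ratio moved by at least its SD over libraries in 7 checks over other nuclei, beside 177 that stayed. Against ND, it moved in 85 checks and stayed in 299. Ratios to ND of other named genes were not recomputed, and those of Spp1 and Pdgfd lay on opposite sides of 1 in the STZ-HFHC mice. No paired analysis was possible because ND had 1 mouse. At 28485 UMIs in the ND group, a gene with no UMI there could stand at up to 105 CPM.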
